A study of Mus musculus with 12 samples.

Results

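The T cell and intraepithelial lymphocyte genes described here are 10 genes chosen by name: Cd3e and Cd3g of the T cell receptor complex, the co-receptors Cd8a and Cd4, the cytotoxic granule genes Gzma, Gzmb and Nkg7, and Itgae, Ccl5 and Cd7 of the surface and secreted proteins. All 10 were measured by 1 probe set each that names exactly 1 gene, and all 10 were among the 11920 of 19938 genes that passed the intensity minimum of 50. Intraepithelial lymphocytes are T cells that sit between the epithelial cells of the gut. Most of them in the mouse small intestine carry CD8, many carry the αEβ7 integrin that binds E-cadherin on epithelial cells, and they hold granzymes ready in cytotoxic granules. CD4 T cells are found mostly in the lamina propria beneath the epithelium. The CD3 chains are invariant parts of the receptor on every T cell, so they follow T cells in general, while granule genes follow the cytotoxic ones and natural killer (NK) cells.

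The study asked how ageing alters the small intestine, and whether the diet alters the response. The arrays carried RNA scraped from the small intestine of male C57BL/6J mice, cut into a proximal, a middle and a distal segment. Old mice were 21 months old and young mice 4 months, and each age group received a high-fat diet (45% of energy from fat) or a low-fat diet (10%) for 2 weeks, after all mice had been adapted to the low-fat diet. Each of the 12 Affymetrix Mouse Gene 1.0 ST arrays held pooled RNA of all mice of a group, 8 old or 6 young mice, and a pool's mice gave all 3 of its segments. There were thus 4 pools, and no group had a second array. The pooling hides the spread between mice. Values are log2 intensities, on which a difference of 1 is a 2-fold change, and the level of a probe set is compared only with itself between arrays.

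The labelled segments carried their own markers. The 3 proximal markers tested were lower and the 3 distal markers higher in the distal than in the proximal segment, all past the threshold (limma, Benjamini-Hochberg adjusted p under 0.05). The proximal marker Pdx1 reached the intensity minimum on proximal arrays only, so the filter kept it through the segment where it was higher. The epithelial list (8 genes, among them Epcam and Vil1) had a summed log2 intensity between 14.96 and 15.29 in all groups. NK cell markers were dim: the highest value of the 5 measured, that of Ncr1, was 4.49, and none reached the intensity minimum. The distal array of old mice on the high-fat diet stood apart. Averaged over a list and centred per gene over the 12 arrays, its B cell markers were at -0.09, against 0.57 in low-fat-fed old mice and 0.70 and 0.57 in young mice fed high fat and low fat. Myeloid markers were at -0.53 there and smooth muscle markers at -0.05, each the lowest of the distal arrays, while epithelial markers were at 0.21, the highest. Several results that rest on this array are given with and without it, and the others include it. The middle array of young mice on the high-fat diet had distal markers at 1.24, against -0.78 to -0.15 on the other middle arrays.

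The 10 genes shared a gradient along the intestine. Each of them was lower in the distal than in the proximal segment, and all 10 passed the test, with differences between -1.19 for Gzma and Gzmb and -0.22 for Cd3e. Over all genes 54.8% passed in this comparison and 27.5% were lower. The direction was the same in each of the 4 pools for each of the 10 genes, and for 9 of the 10, all but Cd4, the 4 distal arrays lay below the 4 proximal arrays without overlap, which held for 23.8% of all genes. In scrapings, fewer cells of a type and less RNA per cell cannot be told apart.

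**Figure D1:**
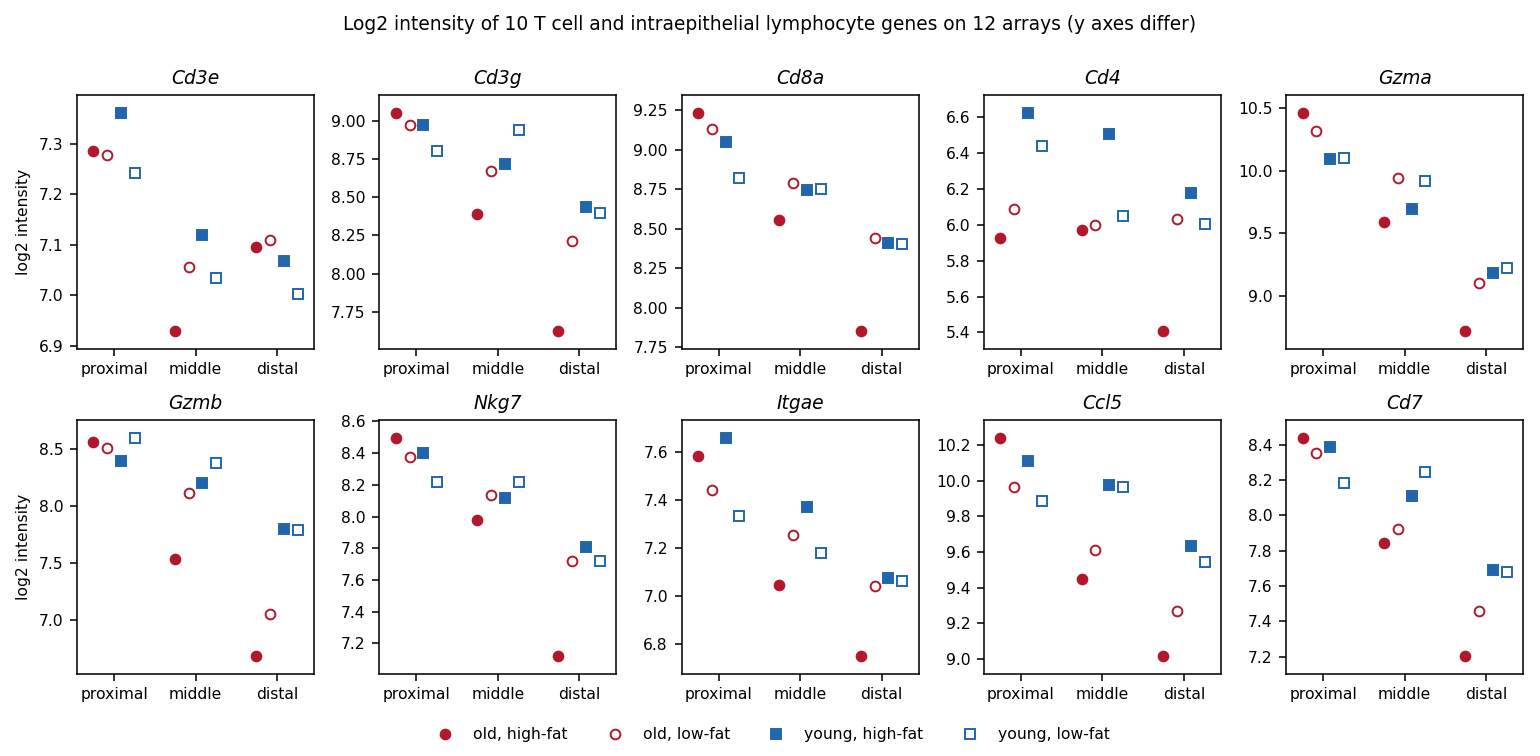
Log2 intensity (y axis, scaled per gene) of the 10 genes on the 12 arrays by segment (x axis); red circles are old and blue squares young mice, filled symbols the high-fat and open symbols the low-fat diet, 1 array each. The distal array of old mice on the high-fat diet is the lowest for 9 of the 10 genes, and Cd3e spans only 0.43 log2 units over the 12 arrays.

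Granzymes A and B are serine proteases that cytotoxic lymphocytes release into target cells, and Nkg7 is a membrane protein of their granules. In old mice Gzma measured 10.46, 9.59 and 8.72 on high fat and 10.31, 9.94 and 9.10 on low fat (proximal, middle, distal). Young mice had Gzma at 10.10, 9.70 and 9.18 on high fat and 10.10, 9.92 and 9.22 on low fat. The proximal arrays were the highest and the distal arrays the lowest, with no overlap between any of the 3 segments. Gzma was 2.28-fold lower in the distal than in the proximal segment (log2 difference -1.19, SE 0.12, limma adjusted p = 2.18e-05), and it passed both steps, middle against proximal (-0.46, SE 0.12, adjusted p = 0.0231) and distal against middle (-0.73, SE 0.12, adjusted p = 0.00138).

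In old mice Gzmb measured 8.56, 7.53 and 6.68 on high fat and 8.51, 8.11 and 7.05 on low fat (proximal, middle, distal). Young mice had Gzmb at 8.40, 8.20 and 7.80 on high fat and 8.60, 8.38 and 7.79 on low fat. Of the 10 genes Gzmb covered the widest span, 1.92 log2 units, and the old distal arrays lay below all others. Distal values were 2.27-fold lower than proximal ones (-1.19, SE 0.18, adjusted p = 0.000237). The step from middle to distal passed (-0.73, SE 0.18, adjusted p = 0.00969), and the step from proximal to middle did not (-0.46, SE 0.18, adjusted p = 0.0822).

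In old mice Nkg7 measured 8.50, 7.98 and 7.12 on high fat and 8.38, 8.14 and 7.72 on low fat (proximal, middle, distal). Young mice had Nkg7 at 8.40, 8.12 and 7.81 on high fat and 8.22, 8.22 and 7.72 on low fat. Its distal values were below all its middle and proximal ones. The distal-to-proximal difference of Nkg7 was -0.78 (SE 0.12, adjusted p = 0.000342).

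The start regions of 6 of the 10 genes, Cd3e, Cd3g, Cd8a, Gzma, Gzmb and Nkg7, were found in RefSeq (build GRCm38.p6). Those of the granule genes are shown with those of the CD3 chains because the granule genes were to be set against the receptor genes. The depth of the gradient did not separate these groups. The distal-to-proximal difference was -0.78 for both Nkg7 and Cd3g, -1.19 for Gzma and Gzmb and -0.22 for Cd3e. Each run gives the 120 bases before the transcript start, 5′ to 3′ on the gene's strand, and capitals mark matches to 3 motifs: TGTGGT, the core bound by RUNX factors, GGTGTGA, a T-box core, and TGANTCA, an AP-1 site, each on either strand.
Gzma, chr13:113100982-113101101, minus strand: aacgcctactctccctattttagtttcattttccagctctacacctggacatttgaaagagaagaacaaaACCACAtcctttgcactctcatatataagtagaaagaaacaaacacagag
Gzmb, chr14:56262335-56262454, minus strand: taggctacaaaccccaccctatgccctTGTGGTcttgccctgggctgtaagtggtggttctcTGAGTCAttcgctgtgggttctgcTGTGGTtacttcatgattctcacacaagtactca
Nkg7, chr7:43437018-43437137, plus strand: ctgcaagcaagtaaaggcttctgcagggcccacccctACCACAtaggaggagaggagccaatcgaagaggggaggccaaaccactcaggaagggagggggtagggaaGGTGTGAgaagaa
Cd3g, chr9:44980432-44980551, minus strand: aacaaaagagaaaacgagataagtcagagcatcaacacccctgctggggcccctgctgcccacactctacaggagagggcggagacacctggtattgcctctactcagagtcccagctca
Cd3e, chr9:45009612-45009731, minus strand: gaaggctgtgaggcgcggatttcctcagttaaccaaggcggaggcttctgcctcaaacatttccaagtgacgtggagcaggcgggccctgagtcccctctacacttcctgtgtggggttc
The RUNX core was found in the runs of all 3 granule genes, in Gzmb at 93 and 34 bases before the start, in Gzma at 50 bases and in Nkg7 at 83 bases, the last 2 on the opposite strand. It was not found in those of Cd3g, Cd3e and Cd8a, nor elsewhere in their 300-base windows. Among 32851 RefSeq promoters, 6.7% hold it within these 120 bases. Nkg7 held the T-box core (1.5% of promoters) and Gzmb the AP-1 site (3.4%), and the motifs did not overlap. The motifs were chosen after a wider look at these promoters, and a match of letters is not a bound site.

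The CD3 chains differed from each other. In old mice Cd3g measured 9.05, 8.39 and 7.62 on high fat and 8.97, 8.67 and 8.22 on low fat (proximal, middle, distal). Young mice had Cd3g at 8.97, 8.72 and 8.44 on high fat and 8.80, 8.94 and 8.39 on low fat. Distal arrays lay below proximal arrays, and the old high-fat array was the lowest. Cd3g was 1.72-fold lower in the distal than in the proximal segment (-0.78, SE 0.14, adjusted p = 0.000841) and 1.43-fold lower than in the middle (-0.51, SE 0.14, adjusted p = 0.0174). In old mice Cd3e measured 7.29, 6.93 and 7.09 on high fat and 7.28, 7.06 and 7.11 on low fat (proximal, middle, distal). Young mice had Cd3e at 7.36, 7.12 and 7.07 on high fat and 7.24, 7.03 and 7.002 on low fat. The step lay between proximal and middle (-0.26, SE 0.05, adjusted p = 0.00631), with the middle and distal arrays overlapping (0.03, SE 0.05, adjusted p = 0.643). Both encode chains of the same receptor complex, yet the span over 12 arrays was 1.43 log2 units for Cd3g and 0.43 for Cd3e. The third CD3 chain, Cd3d, was also lower in the distal than in the proximal segment (-0.36, SE 0.10, adjusted p = 0.011). Cd247, the zeta chain, did not reach the intensity minimum.

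Cd8a encodes the α chain of CD8, the co-receptor for class I major histocompatibility complex (MHC) molecules. In old mice Cd8a measured 9.23, 8.55 and 7.85 on high fat and 9.13, 8.79 and 8.44 on low fat (proximal, middle, distal). Young mice had Cd8a at 9.05, 8.74 and 8.41 on high fat and 8.82, 8.75 and 8.40 on low fat. Middle arrays lay between proximal and distal ones. The distal-to-proximal difference was -0.78 (SE 0.12, adjusted p = 0.000376), 1.72-fold. Its partner chain Cd8b1, with values between 5.62 and 6.29 and so near the intensity minimum, had a difference of -0.17 (SE 0.10, adjusted p = 0.171). Cd4 encodes the co-receptor for class II molecules and is also carried by some myeloid cells. In old mice Cd4 measured 5.93, 5.97 and 5.41 on high fat and 6.09, 6.00 and 6.03 on low fat (proximal, middle, distal). Young mice had Cd4 at 6.63, 6.51 and 6.18 on high fat and 6.44, 6.05 and 6.01 on low fat. In the proximal segment both old arrays lay below both young ones, and the segments overlapped. The age test did not pass there (limma adjusted p = 0.468), and the share of all genes so separated by age was not counted. Cd4 was 1.29-fold lower in the distal than in the proximal segment (-0.36, SE 0.10, adjusted p = 0.00956), and without a term for the pool the same difference did not pass (adjusted p = 0.121).

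Itgae encodes the αE chain of the integrin that binds E-cadherin. In old mice Itgae measured 7.59, 7.04 and 6.75 on high fat and 7.44, 7.26 and 7.04 on low fat (proximal, middle, distal). Young mice had Itgae at 7.66, 7.37 and 7.08 on high fat and 7.34, 7.18 and 7.06 on low fat. It was 1.44-fold lower in the distal than in the proximal segment (-0.52, SE 0.08, adjusted p = 0.000376), and the step from proximal to middle passed (-0.29, SE 0.08, adjusted p = 0.0267). Ccl5 is a chemokine that memory and cytotoxic T cells store. In old mice Ccl5 measured 10.24, 9.45 and 9.02 on high fat and 9.96, 9.61 and 9.27 on low fat (proximal, middle, distal). Young mice had Ccl5 at 10.11, 9.97 and 9.63 on high fat and 9.89, 9.96 and 9.54 on low fat. Proximal and middle arrays overlapped in young mice. The distal-to-proximal difference was -0.68 (SE 0.13, adjusted p = 0.00111). Cd7 is a surface protein of T and NK cells. In old mice Cd7 measured 8.44, 7.85 and 7.20 on high fat and 8.35, 7.92 and 7.46 on low fat (proximal, middle, distal). Young mice had Cd7 at 8.39, 8.11 and 7.69 on high fat and 8.18, 8.24 and 7.68 on low fat. All distal arrays lay below all others, and the distal-to-proximal difference was -0.83 (SE 0.11, adjusted p = 8.5e-05), 1.78-fold.

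**Figure D2:**
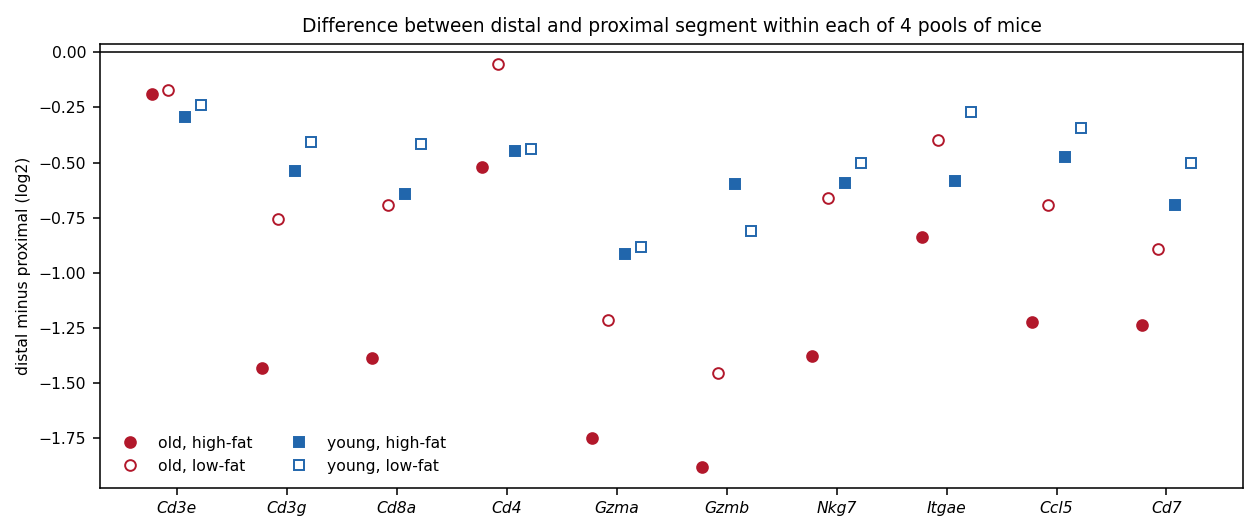
Distal minus proximal log2 difference (y axis) of the 10 genes (x axis) in each of the 4 pools of mice; red circles are old and blue squares young mice, filled symbols the high-fat and open symbols the low-fat diet. All differences are below 0, and those of old mice on the high-fat diet reach -1.88 for Gzmb and -1.75 for Gzma.

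Without the distal array of old mice on the high-fat diet, all 10 genes still passed as lower in the distal than in the proximal segment, with Gzma at -1.07 and Gzmb at -1.05. In distal against middle, 7 genes passed as lower: Cd3g, Cd8a, Gzma, Gzmb, Nkg7, Ccl5 and Cd7, where 34.6% of all genes passed and 20% were lower. Ccl5 did not pass without that array (-0.29, adjusted p = 0.115), and it passed in 4 of the 12 fits that left out 1 array. Without the middle low-fat array of young mice 4 genes passed, Gzma, Gzmb, Nkg7 and Cd7. In middle against proximal, 3 passed as lower, Cd3e, Gzma and Itgae, where 25% of all genes passed and 10.9% were lower. This count was 1, Cd3e, without the middle high-fat array of old or of young mice, and 6 without the proximal low-fat array of young mice or the distal high-fat array of old mice.

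Other lymphocyte genes were read from lists, against 27.5% of all genes lower and 27.3% higher in the distal than in the proximal segment. Of 15 NK-type receptor genes, which intraepithelial T cells also carry, 6 were tested and all 6 passed as lower in the distal than in the proximal segment (median -0.80, against 0.02 for all genes tested). They included Klrd1, which encodes CD94 (-1.33, SE 0.11), and the signalling adaptors Tyrobp (-1.11, SE 0.12) and Fcer1g (-0.92, SE 0.11), both also expressed by myeloid cells. In a longer list of 12 granule genes 8 were tested, of which 5 passed as lower and 2 as higher. The protease Ctsw was at -0.48 (SE 0.11) and the granule proteoglycan Srgn at -0.60 (SE 0.17), while Rab27a, which brings granules to the membrane in many cell types, was higher (0.29, SE 0.06). The pore-forming protein Prf1 had a difference of -0.07 (SE 0.08, adjusted p = 0.458), against -1.19 for each granzyme. Its values lay between 5.80 and 6.15, near the intensity minimum and below those of the granzymes. In the T cell receptor signalling list 3 of 11 tested genes passed as lower and 2 as higher, near the shares over all genes, with the kinase Txk at -0.65 (SE 0.07) and the adhesion receptor Cd2, shared with other lymphocytes, at 0.46 (SE 0.13). For homing and retention, likewise near that share, 3 of 11 passed as lower, Itgae, the CCL25 receptor Ccr9 (-0.63, SE 0.16) and Gpr55 (-0.45, SE 0.10), and 1 as higher, the egress receptor S1pr1 (0.52, SE 0.09).

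Epithelial partners of these cells went both ways, 4 lower and 4 higher of 9 tested. Il15, a cytokine that maintains CD8 intraepithelial cells, was at -1.01 (SE 0.10), and the butyrophilin-like genes Btnl2 and Btnl1, of a family that shapes γδ intraepithelial cells, were at -0.77 (SE 0.08) and -0.60 (SE 0.05). Il7, another lymphocyte growth factor, was higher (0.67, SE 0.10). It reached the intensity minimum only on the distal array of young mice on the low-fat diet, so the filter kept it through the segment where it was higher. Of 6 chemokine and cytokine genes tested 4 passed as lower, among them Ccl5, Ccl3 (-0.99, SE 0.12) and the IL-15 receptor chain Il2rb (-0.59, SE 0.09), and 1 as higher, the lymphotoxin chain Ltb (0.23, SE 0.06). The T cell regulators tested were near the shares over all genes (27.5% lower and 27.3% higher). Of these regulators 2 of 9 passed as lower, Ahr (-0.69, SE 0.06) and Id2 (-0.63, SE 0.08), both also made outside lymphocytes. Another 2 passed as higher, Bcl11b (0.46, SE 0.07), a factor of T cell development, and Zbtb7b (0.16, SE 0.05), which directs the CD4 lineage. Bcl11b (7.47) and Zbtb7b (9.65) were highest on the distal array of old mice on the high-fat diet, where 9 of the 10 genes were lowest. Whether these factors follow T cells in the scrapings was not tested. The B cell markers ran against the 10 genes: all 8 tested passed as higher in the distal than in the proximal segment (median 0.55). Of these, Cr2, Blk, Bank1 and Cd22 reached the intensity minimum on distal arrays only. The filter thus kept them through the segment in which they were higher. Cd79a, Cd79b, Ms4a1 and Pax5 also reached it in other segments. Of 3 naive T cell markers 2 passed as higher, S1pr1 and Klf2 (0.29, SE 0.10). Whether S1pr1 and Klf2 follow naive T cells in the scrapings was not tested. Myeloid markers were mostly lower, 7 of 9, and 1 was higher. All 7 smooth muscle markers and 6 of 8 epithelial markers were higher. The part that these cell types have in the gradient was not tested.

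**Figure D3:**
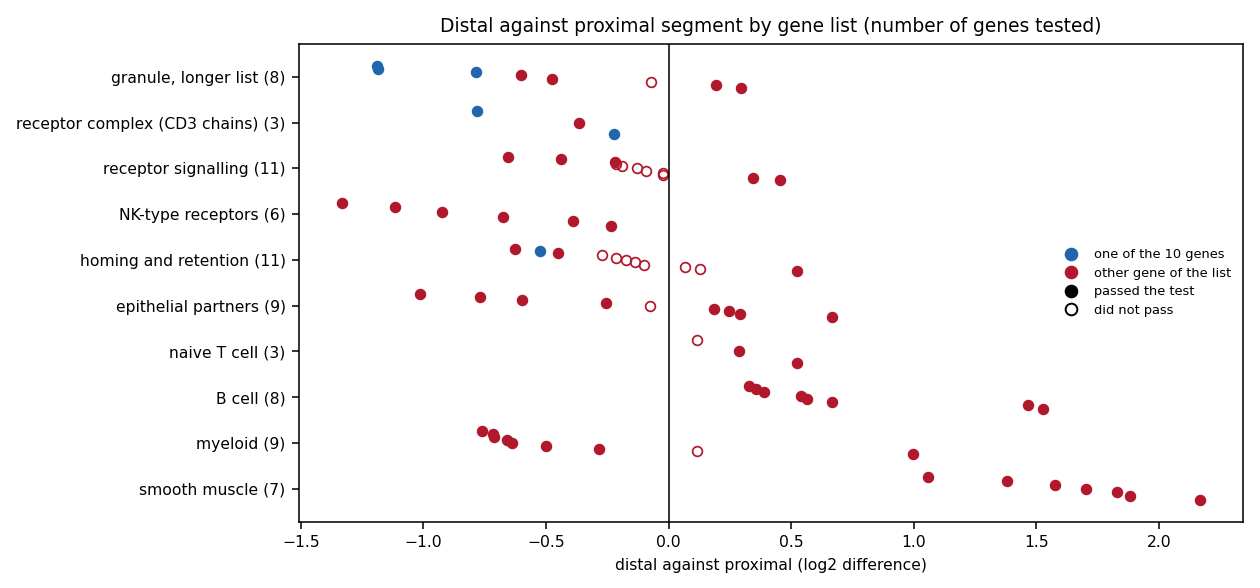
Distal against proximal log2 difference (x axis) of each tested gene by list (y axis, number of genes tested in brackets); blue marks the 10 genes, red the other genes of a list, and filled symbols passed the test. The 6 NK-type receptor genes all lie below 0 and the 8 B cell and 7 smooth muscle markers all above it. The B cell markers Cr2, Blk, Bank1 and Cd22 reached the intensity minimum on distal arrays only.

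Fewer of the 10 genes passed between the ages than between the segments. Gzmb was the only one of the 10 that passed the test for old against young mice, in the distal segment and in the means of the pools. In the distal segment Gzmb was 1.90-fold lower in old mice (-0.93, SE 0.13, adjusted p = 0.0389), with both old arrays below both young ones and pair differences of -1.12 on the high-fat and -0.73 on the low-fat diet. Here 0.654% of all genes passed and 0.47% were lower, and the share with both old arrays below both young ones was not counted. At an unadjusted p under 0.05, 6 of the 10 were lower, where 19% of all genes passed that mark and 8.57% were lower. In the means of the pools over the 3 segments Gzmb was 1.37-fold lower (-0.45, SE 0.06, adjusted p = 0.0147), where 2.91% of all genes passed and 2.15% were lower. Of the genes that did not pass, Cd4 was at -0.40 (SE 0.12, adjusted p = 0.151) and Ccl5, with the lowest adjusted p of these, at -0.26 (SE 0.06, adjusted p = 0.069).

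The distal call for Gzmb depended on the filter and on single arrays. It did not pass with no intensity filter (adjusted p = 0.058), nor without any of the 4 middle arrays (adjusted p = 0.0723 for each), without either low-fat distal array (-1.12, adjusted p = 0.0599) or without either high-fat distal array (-0.73, adjusted p = 0.376). Without either low-fat distal array Cd3g passed in its place. The call over the pools was lost without the distal segment (-0.22, adjusted p = 0.211), with no filter (adjusted p = 0.0566), without the proximal array of old mice on the high-fat diet (-0.59, adjusted p = 0.0569) and without the distal array of young mice on the high-fat diet (-0.35, adjusted p = 0.0553). Without the proximal low-fat array of young mice 4 genes passed over the pools, Cd3g, Gzmb, Ccl5 and Cd7.

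**Figure D4:**
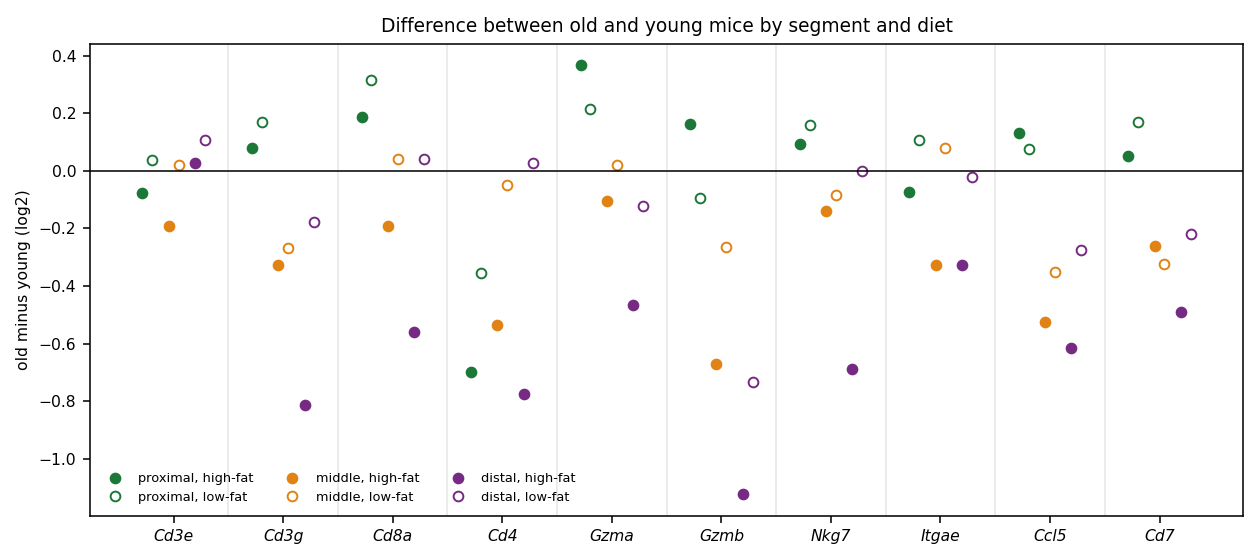
Old minus young log2 difference (y axis) of the 10 genes (x axis); green, orange and purple are the proximal, middle and distal segment, filled symbols the high-fat and open symbols the low-fat pair, each a difference of 2 arrays. Gzmb reaches -1.12 in the distal high-fat pair, and the proximal pairs of Cd4 are at -0.70 and -0.36.

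The remaining 9 genes did not pass in any segment. Counting directions without a test, 9 of the 10 were estimated lower in old mice in the distal segment (median -0.35), 10 in the middle segment (median -0.21) and 2 in the proximal segment (median 0.11), against medians of 0.00, 0.02 and 0.00 over all genes. In the middle segment the low-fat pair alone had a median of -0.07, with 6 genes lower and 4 higher, and the high-fat pair -0.29, with all 10 lower. There 0 genes of the 10 passed (3 at an unadjusted p under 0.05, Gzmb, Ccl5 and Cd7, against 8.81% of all genes), where 0.0252% of all genes passed, and with an intensity trend and robust variance Ccl5 did. In the proximal segment 0 passed (2 at an unadjusted p under 0.05, Gzma and Cd4, against 8.66% of all genes), where 0.109% of all genes passed. These 2 had opposite signs: Gzma was at 0.29 (SE 0.10, adjusted p = 0.43) and Cd4 at -0.53 (SE 0.20, adjusted p = 0.468).

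The distal differences were larger in the high-fat than in the low-fat pair, though this was not tested. On the high-fat diet the 10 genes had a median of -0.59 between old and young mice, and Gzmb was the only one over 2-fold lower, where 0.52% of all genes were. On the low-fat diet the median was -0.07, with 6 genes lower and 4 higher, and Gzmb (-0.73), Ccl5 (-0.27), Cd7 (-0.22), Cd3g (-0.18) and Gzma (-0.12) had the lowest values. Beside this, all 8 B cell markers (median -0.35), 8 of 9 myeloid markers (median -0.30) and all 7 smooth muscle markers (median -1.11) were estimated lower in old mice in the distal segment. Of the smooth muscle genes 6 passed. The centred B cell averages in old and young mice were 0.57 and 0.57 on low fat, but -0.09 and 0.70 on high fat. Their difference thus rested on the array that stood apart. Myeloid averages were -0.15 and -0.05 on low fat, and -0.53 and -0.13 on high fat. Smooth muscle averages were 0.69 and 1.67 on low fat, and -0.05 and 1.21 on high fat. In the summed intensities, B cell markers were between 8.62 and 9.33 in old and between 9.30 and 9.52 in young distal samples. The epithelial sum was between 15.26 and 15.29 in old and between 15.26 and 15.28 in young ones. The part of these cell types in the age differences was not tested. None of the NK-type receptor genes tested passed for age in the distal segment (5 of 6 estimated lower, median -0.15). Of the 11 homing genes, all estimated lower, none passed there and S1pr1 passed over the pools (-0.28, SE 0.08, adjusted p = 0.0366). Among the 3 naive T cell markers tested, which include S1pr1, 1 passed as lower and 1 as higher over the pools. The higher one was Il7r.

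Whether age acted differently along the intestine was tested as the distal minus the proximal age difference, and as the distal minus the middle one. In both, 0 of the 10 genes and 0% of all genes passed, with 6 and 1 of the 10 at an unadjusted p under 0.05, against 8.84% and 11.6% of all genes. Gzmb had a distal minus proximal value of -0.96 (SE 0.19, unadjusted p = 0.00113, adjusted p = 0.365), which passed with an intensity trend and robust variance. Cd3g was at -0.62 (SE 0.19, adjusted p = 0.528) and Gzma at -0.58 (SE 0.14, adjusted p = 0.502). These values include the distal array of old mice on the high-fat diet. The median distal minus proximal value of the 10 genes was -0.49 with that array and -0.26 without it.

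The granule genes were then set against the receptor genes. The shift is the mean log2 difference of Gzma, Gzmb and Nkg7 minus that of Cd3e and Cd3g, given with no test. Between segments the granule genes differed by more: the shift was -0.55 for distal against proximal, made of -1.05 for the granule and -0.50 for the receptor genes, and it lay between -0.86 and -0.29 in the 4 pools. For old against young mice it was -0.31 in the distal segment, -0.02 in the middle and 0.10 in the proximal one. The 2 receptor genes differed here, with Cd3e at 0.07 (SE 0.08) and Cd3g at -0.50 (SE 0.14) in the distal segment. Without the distal array of old mice on the high-fat diet the distal age shift was -0.25. With Cd3g alone for the receptor, a choice made after the values were seen, the shift was -0.27 for distal against proximal and -0.03 for age in the distal segment. With the longer lists (8 granule genes, 3 CD3 chains) it was -0.02 and -0.07.

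**Figure D5:**
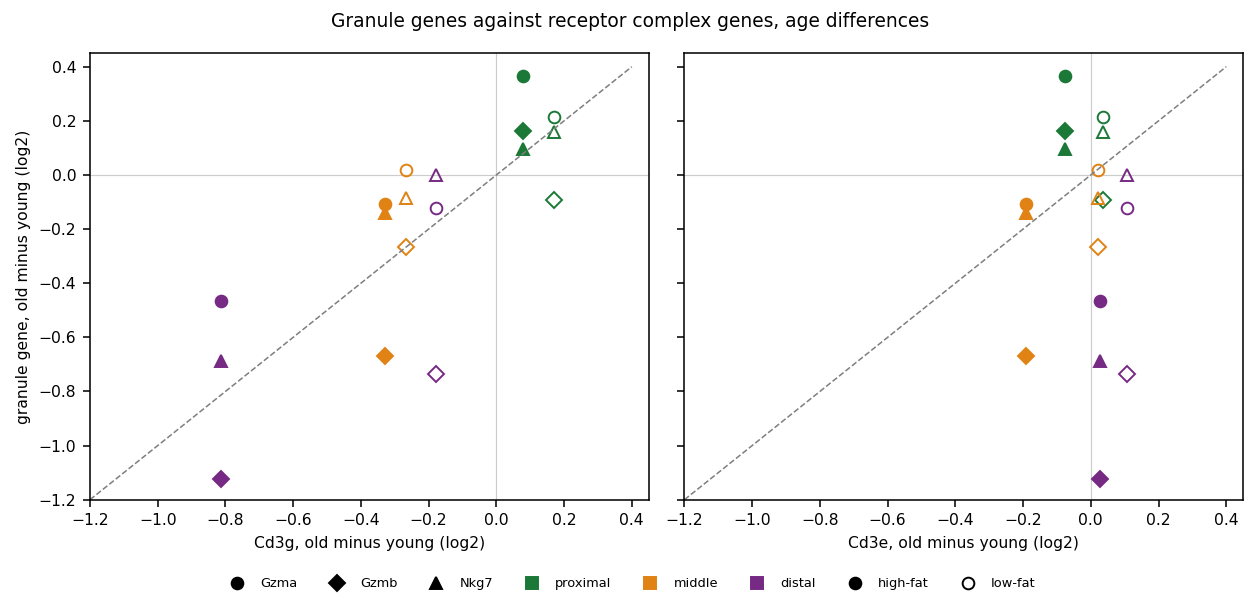
Old minus young log2 difference of Gzma, Gzmb and Nkg7 (y axis) against that of Cd3g (left) or Cd3e (right, x axes), by segment (colour) and diet (filled high-fat, open low-fat); the dashed line marks equal differences. Gzma and Nkg7 lie near or above the line for Cd3g, and Gzmb minus Cd3g is -0.31 and -0.56 in the distal high-fat and low-fat pair.

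Within the granule genes Gzmb and Gzma parted. The old minus young difference of Gzmb was below that of Gzma in all 6 pairs of arrays. Gzmb minus Gzma was -0.66 in the distal high-fat pair and -0.61 in the distal low-fat pair. The middle pairs gave -0.56 (high-fat) and -0.28 (low-fat), the proximal pairs -0.20 and -0.31. Measured from Cd3g, Gzma was higher in all 6 pairs (0.04 to 0.35), Nkg7 in 5 of 6, and Gzmb was lower in 4 of 6, between -0.56 and 0.08. Gzma was higher on both old than on both young proximal arrays, but its test there did not pass (limma adjusted p = 0.43). The share of all genes with such a separation was not counted. The pools share their 3 segments, so these pairs are not independent.

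The diet comparison gave no calls among the 10 genes. For the high-fat against the low-fat diet 0 passed in the proximal segment (1 at an unadjusted p under 0.05, Ccl5 at 0.25, SE 0.10, adjusted p = 0.41, against 10.8% of all genes), where 0.319% of all genes passed. In the middle segment 0 passed (2 at an unadjusted p under 0.05, Gzmb at -0.38 and Gzma at -0.29, against 18% of all genes), where 2.54% passed, and in the distal segment 0 passed (0 at an unadjusted p under 0.05, against 17.5% of all genes), where 0.529% passed. With an intensity trend and robust variance there were also 0 calls among the 10 in each segment. The pairs within an age differed in the distal segment: in old mice the high-fat array was below the low-fat array for all 10 genes (median -0.38, with Cd4 at -0.63, Nkg7 at -0.60, Cd3g and Cd8a at -0.59), and in young mice it was above for 9 (median 0.03). Each is a single pair of arrays, and the old one holds the array that stood apart.

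Most of the 10 genes ran in parallel over the arrays, less so without the distal array of old mice on the high-fat diet. With the mean of each segment taken off, the 45 pairs of genes had Pearson correlations between -0.06 and 0.95 over the 12 arrays (median 0.72), highest for Ccl5 with Cd7 and for Nkg7 with Cd3g and with Cd8a (0.95 each). The points share arrays and pools. Without that distal array they lay between -0.63 and 0.94 (median 0.53). Among all genes tested, the patterns most like that of Gzmb were those of Zdhhc21 (r = 0.93), Abcg1 (0.93), Tm9sf2 (0.92), Rnf145 (0.91) and Itpkb (0.91). For Cd3e they were Slc25a47 (0.94), Cilk1 (0.89), Crybb1 (0.88), Trim68 (0.88) and Cby3 (0.87). For these 2 genes none of the 5 nearest is among the 10 genes or in the lymphocyte lists. For 5 others at least 1 of the 5 nearest was among the 10. Ccl5 and Cd7 were nearest to each other, followed by Ikzf3 for Ccl5 (0.92) and Cd3g for Cd7 (0.95). Nkg7 was among the 5 nearest of Cd3g (0.95) and of Cd8a (0.95). Cd8a also had Cd96 (0.96) and Zap70 (0.93), and Zap70 was nearest to Gzma (0.95). Other neighbours were not T cell genes, among them the epithelial marker Krt19, nearest to Cd4 (0.96), the B cell marker Ms4a1 for Nkg7 (0.95) and Uqcrb for Gzma (0.89). Only Gzmb and Cd3e had been planned for this reading. The nearest genes were taken with the distal array of old mice on the high-fat diet included.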

How the data were processed

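The authors deposited log2 intensities of 35556 probe sets on 12 arrays, made per the labels with the Robust Multi-array Average method (RMA, version not given in the sources used here). This method corrects background, quantile-normalizes the arrays and summarizes probes, so a shift shared by most genes is removed. Array medians lay between 5.57 and 5.70. Genes were named from the 21789 probe sets with exactly 1 symbol, the brightest standing for a gene, pancreas acinar genes were left out, and an intensity over 50 on at least 1 array was required.

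limma 3.58.1 (R 4.3.3, statmod 1.5.0) modelled the 12 arrays with 9 coefficients (segment, and age and diet within each segment, 3 residual degrees of freedom), the means of the 4 pools (1 residual degree of freedom), and with segment and pool (6 residual degrees of freedom). Benjamini-Hochberg adjustment ran over 11920 genes with a threshold of 0.05. The low-fat and high-fat pairs stand in as repeats for age, and the reverse for diet. With 1 pooled array per group, p-values measure the spread between these arrays, not between mice, and the number of arrays limits the precision. Scripts were tested on simulated data. Python 3.11.15, pandas 2.3.3, numpy 2.4.6 and matplotlib 3.10.9 did the rest.

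The 10 genes and the lists were chosen with earlier results of these data known. From each list up to 4 genes with the largest difference were named. Ctsw, Rab27a, Prf1 and Ltb are outside that rule, named after their values had been seen. The T cell receptor constant chains and some other genes of the lists were not analysed here. Alternatives covered the filter, the normalization, the probe set rule, the variance model, the samples in a fit, the pool term, the lists, the fold threshold and each array left out.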

Additional observations from a re-analysis of the deposited data

Results flagged for a closer look

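For several of the 10 genes, the old minus young difference had one sign in both diet pairs of the proximal segment and the opposite sign in both pairs of another segment. Distal minus proximal, this held for Gzma (-0.58), Cd3g (-0.62), Ccl5 (-0.55) and Cd7 (-0.47). In each the distal pairs were below 0 and the proximal pairs above. The test of that difference did not pass for any of them (limma, adjusted p = 0.502, 0.528, 0.525 and 0.525 in the same order). Gzma was at -0.47 and -0.12 in the distal high-fat and low-fat pair and at 0.37 and 0.21 in the proximal ones. Middle minus proximal, it held for Cd3g (-0.42), Nkg7 (-0.24), Ccl5 (-0.54) and Cd7 (-0.40), and this difference was not tested. With 1 array per group, no array could be checked against others of its group.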

How the results depend on the processing

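All 10 genes passed as lower in the distal than in the proximal segment under every alternative run except that with no term for the pool (9, Cd4 lost). With no intensity filter the age calls among the 10 were 0 in the distal segment and 0 over the pools, against 1 each. An intensity trend with robust variance gave 3 in the distal segment (Gzmb, Ccl5, Cd7), 1 in the middle, 2 over the pools and 1 for the age difference distal minus proximal. The pool means gave 4 without the proximal and 0 without the distal segment. Median centring gave 5 for middle against proximal, against 3. Leaving out each array gave 0 to 1 for age in the distal segment, 0 to 4 over the pools, 1 to 6 for middle against proximal (against 3) and 4 to 8 for distal against middle (against 7). At 1.5-fold in place of 2-fold, 1 gene passed in the old against young pair of the proximal high-fat, the middle high-fat and the distal low-fat samples. In the distal high-fat pair 5 passed. At 2-fold these counts were 0, 0, 0 and 1. The share of all genes over 1.5-fold was not counted, so these counts have no background to be read against.

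The granule minus receptor shift over the pools (-0.075) was -0.087 with quantile normalization, -0.16, -0.10 and 0.041 without the proximal, middle and distal segment, and -0.13 to -0.025 without single arrays. With the longer lists the age shift was 0.10 in the middle, -0.073 in the distal segment and 0.013 over the pools, and the segment shifts 0.019 (middle against proximal), -0.041 (distal against middle) and -0.022 (distal against proximal). With Cd3g alone, chosen after seeing the data, these were 0.091, -0.026 and 0.030 for age, and -0.15 for distal against middle and -0.27 for distal against proximal. The cause of these changes was not tested beyond what each setting leaves out. No setting turned the sign of a called difference.

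Counts over all genes moved more. Old against young, 13 genes passed in the proximal segment (2 with no filter, 77 with the trend, 0 in a fit of that segment, 0 to 4 without single arrays), 3 in the middle (1, 30, 19 and 0 to 8), and 78 in the distal segment (31 with no filter, 451 with the trend, 1 to 67 without single arrays). Over the pools 347 passed (86, 702, 201 with quantile normalization, 217 and 84 without the middle and distal segment, 49 to 399). For diet 38 passed in the proximal segment (233 with the trend, 16 in its own fit, 13 to 41 without single arrays), 303 in the middle (858, 491, 152 with no filter, 26 to 268) and 63 in the distal (435, 36 with no filter, 9 to 61). The distal minus proximal age difference had 0 (28 with the trend) and distal minus middle 0 (1). The segment comparisons were paired by pool. For age and diet no paired analysis was possible because no pool holds both ages or both diets. The pool as a random block (correlation -0.08) left the calls among the 10 genes as they were. Values near the intensity minimum, such as those of Cd4, Cd8b1 and Prf1, are the least certain.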
